A study of Mus musculus with 28 samples.

Results

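The 9 genes described here are 8 aquaporins (Aqp1, Aqp2, Aqp3, Aqp4, Aqp7, Aqp8, Aqp9 and Aqp11) and Avpr2, the vasopressin receptor of the collecting duct. They were taken by name from the 54446 genes counted in every library. RNA sequencing was performed on poly(A) RNA of the liver and the kidney of healthy male C57BL/6 mice (C57BL6J in the methods of the study) aged 8 weeks that were gavaged for 7 days with nicotinamide mononucleotide (NMN, a precursor of NAD) dissolved in sterile water, or with sterile water alone. At 1 gavage a day (the 1340 mg/kg/d schedule) each organ was sampled in 4 mice given NMN and 4 given water, and at 2 gavages a day (the 2680 mg/kg/d schedule) in 3 and 3, which gave 28 libraries of 12688324 to 33872983 counted reads. Every mouse, control mice included, thus received water into the stomach, and the water mice of the 2680 schedule received it more often than those of the 1340 schedule.

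Aquaporins are membrane channels that let water, and in the aquaglyceroporins also glycerol, cross a cell layer. In the kidney, Aqp1 carries water across the proximal tubule and the thin descending limb, while in the collecting duct vasopressin binds Avpr2, raises cyclic AMP, and thereby moves Aqp2 to the apical membrane and raises its transcription, with Aqp3 and Aqp4 as the exits on the basolateral side. In the liver, Aqp8 and Aqp9 are the main channels of the hepatocyte, where Aqp9 takes up glycerol released by fat, a release in which Aqp7 of the adipocyte takes part.

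Promoter sequence was available in RefSeq (GRCm38.p6) for 8 of the 9 genes. The 250 bases before the start site are shown for Aqp2, the gene on which vasopressin acts through cyclic AMP, and for Aqp8, chosen after its values in liver were seen. Capitals mark TGACG, the core of the cyclic AMP response element, searched on both strands. Both stretches lie on the plus strand, Aqp2 at chr15:99578806-99579055 and Aqp8 at chr7:123462044-123462293.
Aqp2: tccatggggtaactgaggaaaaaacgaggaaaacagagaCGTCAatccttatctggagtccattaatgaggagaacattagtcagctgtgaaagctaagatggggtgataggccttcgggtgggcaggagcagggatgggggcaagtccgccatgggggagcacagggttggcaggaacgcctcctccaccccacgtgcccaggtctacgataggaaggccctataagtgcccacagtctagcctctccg
Aqp8: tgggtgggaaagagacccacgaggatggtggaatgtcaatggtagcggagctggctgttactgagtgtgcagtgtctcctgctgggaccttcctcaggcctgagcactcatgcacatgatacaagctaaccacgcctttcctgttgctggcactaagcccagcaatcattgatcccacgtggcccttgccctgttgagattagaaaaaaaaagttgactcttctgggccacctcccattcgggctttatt
In Aqp2 the match is on the minus strand and reads CGTCA on the strand shown, with its first base at -211 from the start site. Aqp2 was the only one of the 8 genes with a match in this window, and 17.8% of the 32851 RefSeq windows of this length held one. The full palindrome TGACGTCA, which contains TGACG, was in no window of these genes and in 1.55% of all windows.

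Of the libraries themselves, 9 livers held reads of kidney genes at a trace level, called a trace of kidney RNA here. The source of these reads was not tested. The summed level of Slc12a1, Umod and Slc34a1, transporters and uromodulin of the kidney tubule chosen after their values were seen, was 0.135% to 0.192% of its kidney mean in the 8 livers of the 1340 schedule and 0.104% in NMN replicate 1 of the 2680 schedule, against at most 0.0261% in the other 5 livers of that schedule. Conversely, hepatocyte markers (Alb, the most abundant in liver, among 5 genes) reached 0.0979% to 0.242% of their liver mean in the kidneys. Kidney libraries held 337 to 29409 counts of each of Aqp1, Aqp2, Aqp3, Aqp4, Aqp7 and Aqp11. Proximal tubule markers, led by Slc34a1, and hepatocyte markers, led by Alb, were highest in the organ that each label named.

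The first comparison asked where each gene is expressed, over the 7 water mice per organ. Levels per transcript length are given in TPM. In kidney, Aqp1 was the most abundant at 814 ± 238 TPM (SD, n = 7), followed by Aqp2 at 413 ± 143 TPM, Aqp3 at 130 ± 30.0 TPM, Aqp4 at 27.1 ± 5.44 TPM, Aqp7, the aquaglyceroporin of the late proximal tubule, at 22.6 ± 5.73 TPM, and Aqp11, an intracellular channel of the proximal tubule, at 17.5 ± 4.003 TPM. Over both schedules Aqp1 and Aqp2 overlapped in their ranges, as did Aqp4 with Aqp7 and Aqp7 with Aqp11. Aqp2 with Aqp3, and Aqp3 with Aqp4, did not. Within each schedule Aqp1 lay above Aqp2, and Aqp7 above Aqp11, without overlap. Aqp8 was at 1.17 ± 1.19 TPM and Aqp9 at 0.154 ± 0.149 TPM, and their ranges overlapped with that of Avpr2. The order of Aqp4 and Aqp7 turned between the schedules: Aqp7 was at 27.05 and Aqp4 at 23.9 TPM on average in the 4 water kidneys of the 1340 schedule, with overlap, and Aqp7 at 16.6 and Aqp4 at 31.4 TPM in the 3 of the 2680 schedule, without overlap.

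In liver the order was different. Aqp9 was highest at 229.5 ± 33.3 TPM (SD, n = 7), followed by Aqp8 at 157 ± 51.0 TPM, Aqp1 at 48.2 ± 12.04 TPM, Aqp11 at 8.54 ± 2.29 TPM and Aqp4 at 1.87 ± 0.790 TPM. Only Aqp9 and Aqp8 overlapped in their ranges among these. Aqp2, Aqp3 and Aqp7 were each at 0 counts in 7 of the 14 livers. All Aqp2 counts in liver, 44 in sum, came from the livers with a trace of kidney RNA, where that trace alone corresponded to 0.244 to 0.453 CPM of Aqp2 against 0 to 0.792 CPM measured (CPM, counts scaled to the counted reads of the library).

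**Figure D1:**
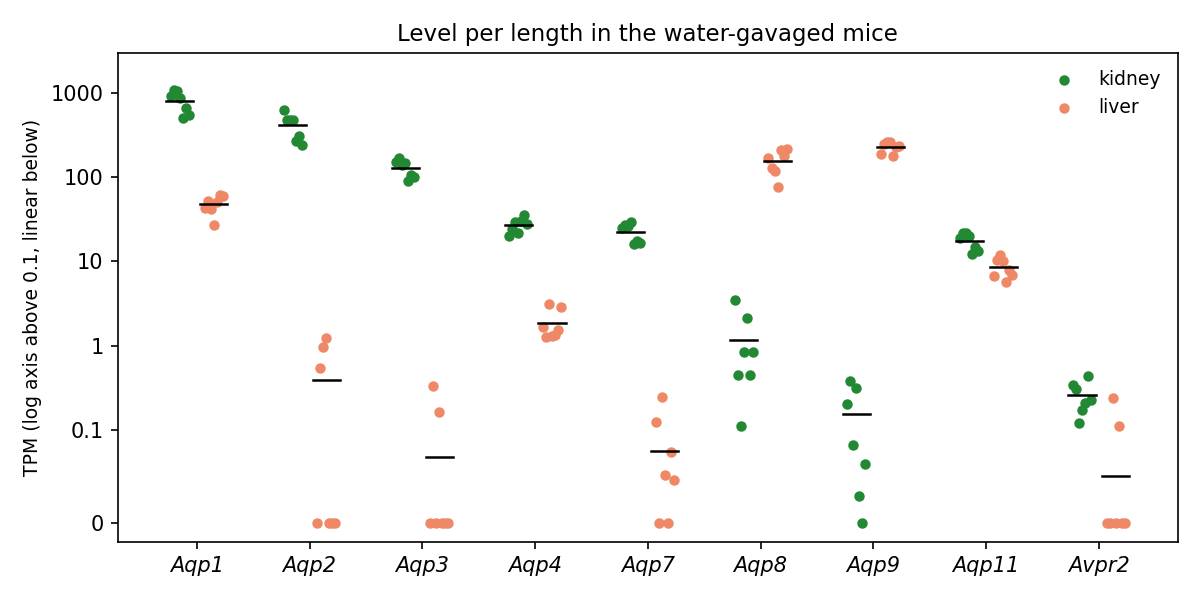
Level in TPM (log axis above 0.1) of each gene in the 7 kidneys (green) and 7 livers (orange) of the water mice, with the mean as a bar. Aqp1, Aqp2 and Aqp3 lead in kidney and Aqp9 and Aqp8 in liver, while the 7 kidneys lie above the 7 livers for Aqp11 (17.5 against 8.54 TPM on average).

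Against liver, kidney was higher by 9.69 on the log2 scale for Aqp3 (SE 0.28), 9.04 for Aqp2 (SE 0.38), 7.10 for Aqp7 (SE 0.27), 2.94 for Aqp1 (SE 0.19) and 2.77 for Aqp4 (SE 0.19). Aqp9 was lower in kidney by a log2 difference of -11.72 (SE 0.29) and Aqp8 by -8.09 (SE 0.44). Of these, the sizes for Aqp2, Aqp3, Aqp7, Aqp8 and Aqp9 are rough, as the organ with the lower level held few counts over its 7 libraries: 25 of Aqp2, 6 of Aqp3 and 10 of Aqp7 in liver, and 89 of Aqp8 and 27 of Aqp9 in kidney. Without water liver replicate 2 of the 1340 schedule Aqp3 was at 10.86, without its replicate 4 Aqp2 was at 9.69, and without water kidney replicate 1 of that schedule Aqp8 was at -8.68. These 7 of 8 genes tested passed an adjusted p of 0.05 in edgeR's quasi-likelihood test, as did 77.3% of all 15100 genes tested. Aqp2, Aqp3 and Aqp7 passed the filter on low counts through the kidneys, and Aqp8 and Aqp9 through the livers. For these genes the call is a description. Aqp11 did not pass, with a log2 difference of -0.07 (95% interval -0.28 to 0.14), although its CPM was 65.9 ± 6.28 in kidney and 35.9 ± 7.36 in liver. CPM carry no TMM scaling between organs, whereas the log2 difference does. In the 5 other settings run, DESeq2 among them, the log2 difference of Aqp11 was -0.05 to -0.01. Scaling between organs enters the other organ differences too. Mean CPM of Aqp1 was 846 in kidney and 58.0 in liver, and that of Aqp4 70.5 and 5.22.

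Avpr2 could not be followed. It had 0 to 9 counts per kidney library, 62 in sum over 14 kidneys, and 0 to 4 counts per liver library, and it was filtered out of every test. In the GENCODE annotation 2347 of its 2886 exon bases (81.3%) are also exon of Arhgap4 on the opposite strand, and counting ignored strand and dropped reads that fit both genes. Arhgap4 itself had 82 to 233 counts per kidney. The receptor's level in the collecting duct was therefore not measurable in these counts.

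The second comparison asked whether NMN altered these genes in kidney. At 1340 mg/kg/d none of the 6 genes tested was altered in edgeR's test, none had an unadjusted p under 0.05 and none passed in DESeq2. The background was 0.12% of 14972 genes tested. The groups overlapped for all 6, while 5.04% of all genes had groups that did not. At 2680 mg/kg/d, 1 of the 7 genes tested was altered, Aqp4, against a background of 0.4% of 15245 genes.

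Aqp4, a basolateral water exit of the collecting duct and also present in the proximal tubule of mice, was at 89.2, 103.1 and 85.9 CPM in the 3 water kidneys of the 2680 schedule and at 42.1, 47.4 and 58.3 CPM in the 3 NMN kidneys. All NMN kidneys lay below all water kidneys, and the NMN mean was 53.1% of the water mean. The log2 fold change was -0.91 (SE 0.12, 95% interval -1.17 to -0.64, edgeR adjusted p = 0.0122), the 12th smallest p of the 15245 genes. Of all genes tested in this comparison 16.9% had groups that did not overlap. In the 1340 schedule Aqp4 was at 47.9, 51.1, 65.1 and 51.4 CPM in water kidneys and at 48.9, 53.4, 49.3 and 52.4 CPM in NMN kidneys, with a log2 fold change of -0.08 (95% interval -0.30 to 0.15, edgeR adjusted p = 0.876). In CPM the NMN kidneys of the 2680 schedule were thus within or just below the range of both groups of the 1340 schedule. The water kidneys of the 2680 schedule stood above all others in CPM. In TPM the NMN kidneys of the 2680 schedule (15.29, 15.98 and 19.66) lay below all kidneys of the 1340 schedule, the lowest at 19.99. The water kidneys of the 2680 schedule (30.1, 35.99 and 28.04 TPM) overlapped with those of the 1340 schedule, the highest at 29.29 TPM. Which group stood apart from the 1340 schedule depended on the unit. Leaving out water replicate 1 or water replicate 3 raised the adjusted p in edgeR to 0.0588 and 0.108, at log2 fold changes of -0.94 and -0.96.

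The other collecting duct channels, Aqp2 and Aqp3, did not pass. Aqp2 was at 184, 200.2 and 168 CPM in the water kidneys and 200.3, 162 and 189 CPM in the NMN kidneys of the 2680 schedule, and the groups overlapped. Its log2 fold change was 0.00 (95% interval -0.21 to 0.22) at 2680 mg/kg/d and 0.07 (95% interval -0.18 to 0.33) at 1340 mg/kg/d. Aqp3 had log2 fold changes of 0.16 (95% interval -0.03 to 0.35) and 0.12 (95% interval -0.10 to 0.33). None of these 4 intervals reached the -0.91 of Aqp4 at 2680 mg/kg/d. The summed level of 6 other principal cell markers, led by Hsd11b2, was 348 ± 23.9 CPM in water and 366 ± 30.3 CPM in NMN kidneys of the 2680 schedule (SD, n = 3 each), with a median log2 fold change of 0.12 (0.00 over all genes).

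Aqp1, the channel of the proximal tubule, had NMN means above the water means in both schedules, within the overlap of the mice. In the 2680 schedule it was at 638, 806 and 708 CPM in water kidneys and 946, 800.5 and 942 CPM in NMN kidneys, a log2 fold change of 0.33 (95% interval 0.09 to 0.56, edgeR adjusted p = 0.276). In the 1340 schedule it was at 943, 969, 985 and 872 CPM in water kidneys and 1157, 1120, 847 and 1243 CPM in NMN kidneys, a log2 fold change of 0.21 (95% interval -0.02 to 0.45, edgeR adjusted p = 0.589). Both groups thus overlapped, NMN replicate 3 of the 1340 schedule being below all its water controls. The summed level of 8 proximal tubule markers was lower on average in NMN kidneys, at 15180 ± 682 CPM in water and 13230 ± 589 CPM in NMN kidneys at 1340 mg/kg/d, and 13940 ± 662 and 11970 ± 1415 CPM at 2680 mg/kg/d.

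Of the remaining kidney genes, Aqp7 had log2 fold changes of -0.11 (95% interval -0.34 to 0.12) and 0.06 (95% interval -0.14 to 0.26), and Aqp11 of -0.05 (95% interval -0.25 to 0.16) and 0.07 (95% interval -0.30 to 0.44), at 1340 and 2680 mg/kg/d. For Aqp11 the NMN kidneys of the 2680 schedule, at 48.7, 78.7 and 61.6 CPM, lay on both sides of their water controls. Aqp8, at 1 to 64 counts per kidney, was tested only in the 2680 schedule (log2 fold change 0.87, 95% interval -0.14 to 1.89). It passed the filter on low counts through the NMN kidneys, at 26, 32 and 64 counts against 28, 5 and 10 in the water kidneys, so the value is a description. The groups overlapped, and the log2 fold change was 1.70 without water replicate 1.

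**Figure D2:**
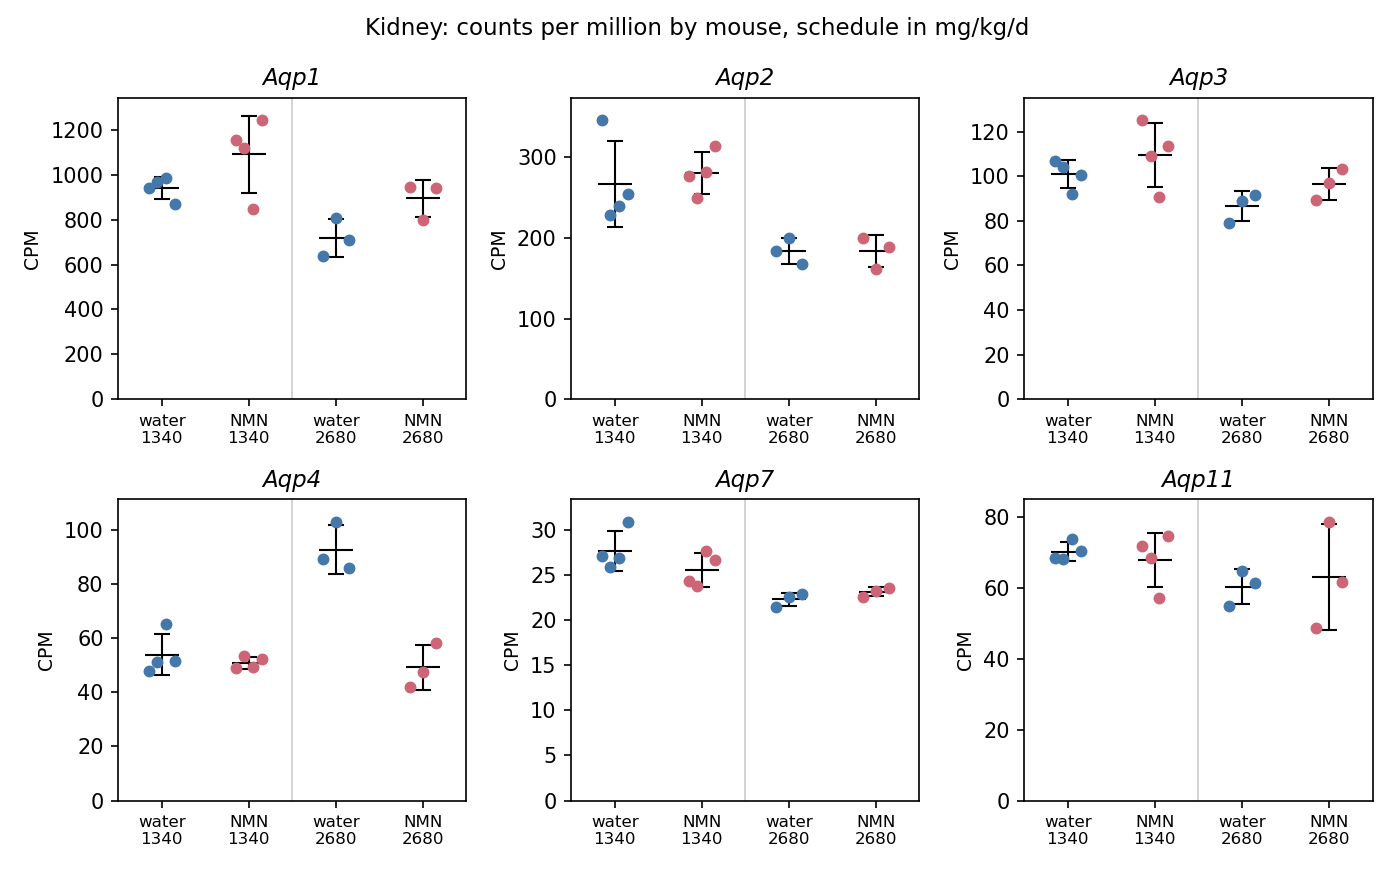
CPM of 6 aquaporins in each kidney, by schedule, for water (blue) and NMN (red) mice, with mean and SD in black. For Aqp4 the 3 water kidneys of the 2680 schedule sit between 85.9 and 103.1 CPM, above every other kidney, while the NMN and water mice of each schedule overlap for the other 5 genes.

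The third comparison asked the same question in liver. At 1340 mg/kg/d none of the 5 genes tested was altered in edgeR's test, beside a background of 0.0161% of 12449 genes, and none passed in DESeq2. An unadjusted p under 0.05 was found for 2 of the 5 (Aqp1 and Aqp4) and for 6.86% of all genes. The groups overlapped for all 5, while 3.56% of all genes had groups that did not. At 2680 mg/kg/d Aqp4 was called, 1 of 5 genes tested, beside a background of 7.08% of 12477 genes. It was tested only because its water livers passed the filter on low counts, so the count is given as a description.

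Aqp4 is a minor channel by its level in liver. In the 2680 schedule it was at 4.11, 4.64 and 8.38 CPM in the water livers (77, 88 and 138 counts) and at 1.57, 0.448 and 0.490 CPM in the NMN livers (31, 9 and 9 counts). All NMN livers lay below all water livers, at 14.7% of the water mean. For this gene, which entered the test through its water livers, the log2 fold change was -2.76 (SE 0.52, 95% interval -3.90 to -1.62, edgeR adjusted p = 0.0133). With no filter on low counts, where 1785 genes were called in place of 883, the edgeR adjusted p was 7.38e-09. Both p values are given as a description. Of all genes tested 29.7% had groups that did not overlap. NMN replicate 1, the highest of the NMN livers, was the one with a trace of kidney RNA, which corresponded to 0.0627 CPM of Aqp4 against 1.57 CPM measured. Without it the log2 fold change was -3.60 (edgeR adjusted p = 0.00193), whereas without NMN replicate 3 the adjusted p in edgeR rose to 0.0566.

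In the 1340 schedule Aqp4 was at 4.65, 3.39, 7.75 and 3.63 CPM in water livers and at 1.69, 1.082, 3.45 and 2.93 CPM in NMN livers. The groups overlapped through 1 NMN liver, and the log2 fold change of -1.085 (95% interval -1.93 to -0.24) did not pass (edgeR adjusted p = 0.581). Here the trace of kidney RNA corresponded to at most 0.116 CPM of Aqp4.

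Aqp8, the hepatocyte channel of the canalicular membrane and of mitochondria, was at 165, 140.3 and 159 CPM in the water livers and at 21.0, 76.3 and 47.1 CPM in the NMN livers of the 2680 schedule. All NMN livers lay below all water livers, at 31.2% of the water mean, with a log2 fold change of -1.69 (95% interval -2.67 to -0.71). The edgeR adjusted p of 0.0575 did not pass, while that of DESeq2 was 0.0129. In the 1340 schedule the water livers were at 119.6, 86.3, 74.1 and 54.5 CPM and the NMN livers at 96.4, 58.0, 61.7 and 21.6 CPM. These overlapped widely, with a log2 fold change of -0.49 (95% interval -1.47 to 0.48). The summed level of the 5 hepatocyte markers was 154700 ± 8860 CPM in water and 119700 ± 6325 CPM in NMN livers of the 2680 schedule (SD, n = 3 each), of which Ttr alone passed (log2 fold change -0.97, edgeR adjusted p = 0.00227). The part of hepatocyte RNA content in the level of Aqp8 was not tested, and in whole organs fewer cells of a type and less RNA per cell cannot be told apart.

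Aqp9, the glycerol channel, showed no difference. It was at 367, 461 and 459.5 CPM in water and 307, 436 and 496 CPM in NMN livers of the 2680 schedule, where NMN mice lay on both sides of the water mice. The log2 fold changes were -0.07 (95% interval -0.47 to 0.33) at 2680 mg/kg/d and -0.06 (95% interval -0.34 to 0.21) at 1340 mg/kg/d. Aqp1, which in liver marks endothelium and bile duct cells, had log2 fold changes of 0.49 (95% interval 0.10 to 0.89, edgeR adjusted p = 0.600) at 1340 mg/kg/d and 0.10 (95% interval -0.38 to 0.57) at 2680 mg/kg/d. Aqp11 had log2 fold changes of -0.37 (95% interval -0.79 to 0.05) and -0.07 (95% interval -0.47 to 0.33).

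**Figure D3:**
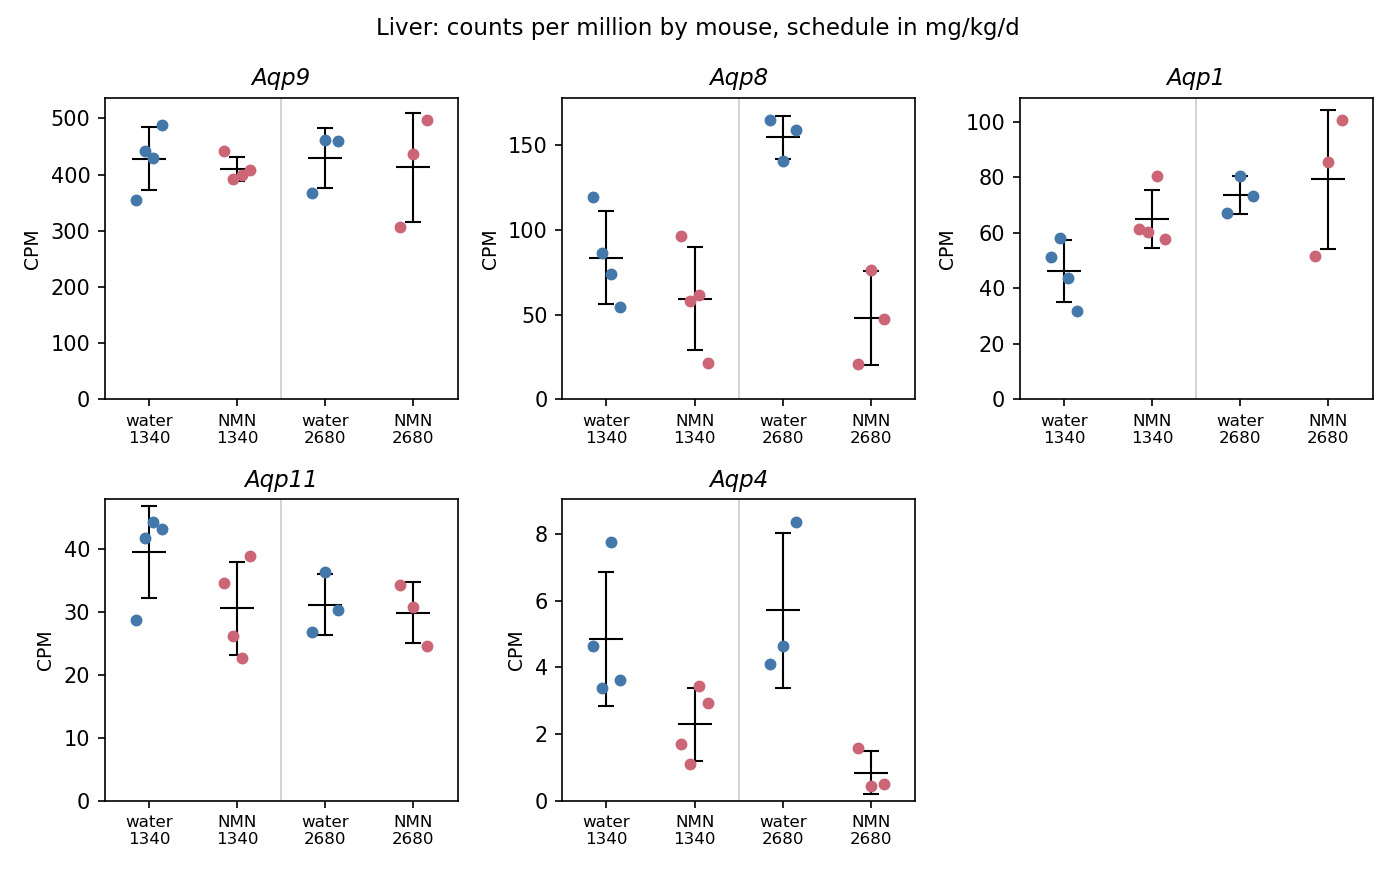
CPM of 5 aquaporins in each liver, by schedule, for water (blue) and NMN (red) mice, with mean and SD in black. In the 2680 schedule the NMN livers lie below the water livers for Aqp8 and Aqp4, while those of Aqp9, Aqp1 and Aqp11 overlap.

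**Figure D4:**
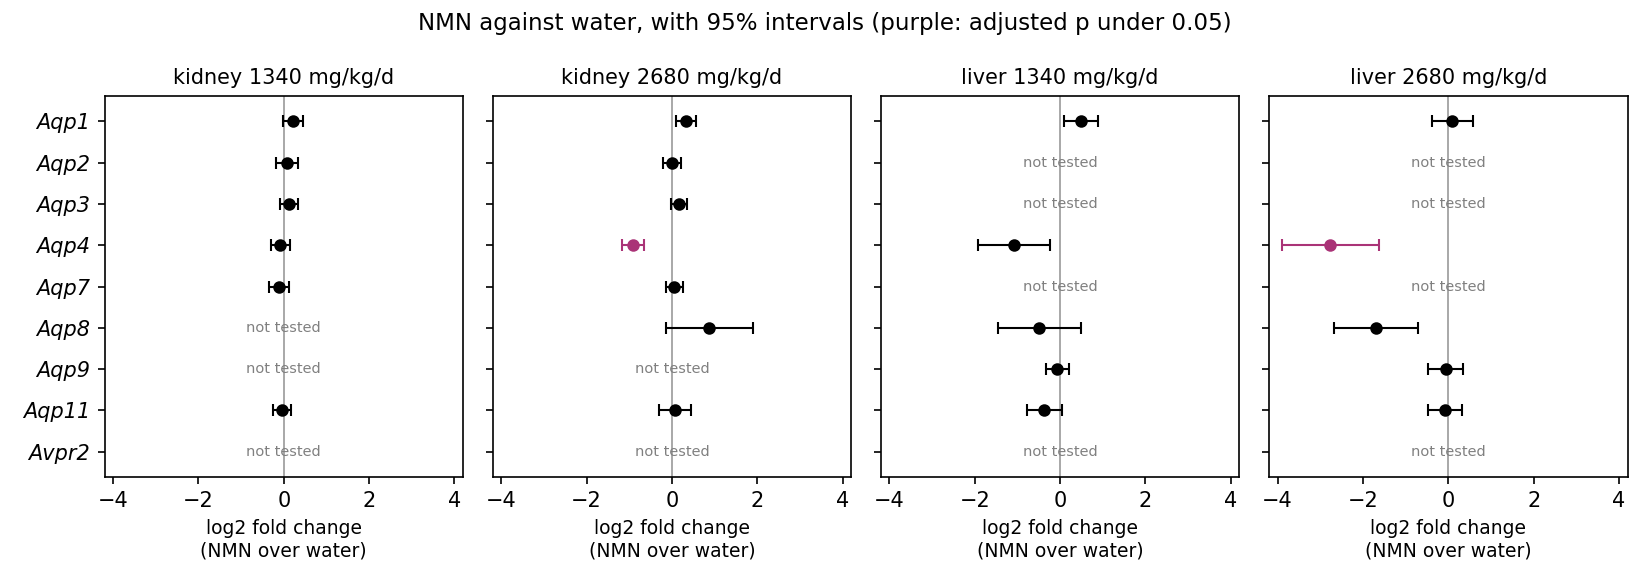
Log2 fold change of NMN over water with its 95% interval for each gene tested, in the 2 organs and 2 schedules, in purple where the edgeR adjusted p was under 0.05 and with genes filtered out marked as not tested. The purple points are Aqp4 in kidney (-0.91) and in liver (-2.76) at 2680 mg/kg/d, the liver value being that of a gene which passed the filter on low counts through its water livers.

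Whether the NMN effect differed between schedules was tested as an interaction. In kidney that of Aqp4 was -0.83 on the log2 scale (95% interval -1.17 to -0.49), the 3rd smallest p of 15989 genes, but the edgeR adjusted p was 0.277. DESeq2 gave an adjusted p of 0.0118 for it. In liver the interaction of Aqp4 was -1.67 (95% interval -3.08 to -0.26, edgeR adjusted p = 0.474; -2.50 without NMN replicate 1 of the 2680 schedule) and that of Aqp8 -1.19 (95% interval -2.68 to 0.30, edgeR adjusted p = 0.681). None of the 7 genes tested in kidney and none of the 5 tested in liver passed in edgeR, beside backgrounds of 0.00625% in kidney and 0.0746% in liver. An unadjusted p under 0.05 was found for 1 gene in each organ, and for 4.62% of all genes in kidney and 8.6% in liver. DESeq2 called Aqp4 in kidney and none in liver.

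The fourth comparison set the water mice of the 2 schedules side by side, as these differed in how often water was given. In kidney 3 of the 6 genes tested were altered, beside a background of 18.3% of 15267 genes. Aqp4 rose in the 2680 schedule by a log2 difference of 0.78 (SE 0.11, edgeR adjusted p = 0.000176), whereas Aqp2 fell by 0.54 on the log2 scale (SE 0.13, edgeR adjusted p = 0.0109) and Aqp1 fell by 0.39 on the log2 scale (SE 0.09, edgeR adjusted p = 0.00838). Aqp2 was at 346, 228, 240.3 and 255 CPM in the water kidneys of the 1340 schedule, replicate 1 being the highest, and the 3 of the 2680 schedule lay below all of them. Aqp7 (-0.31, edgeR adjusted p = 0.0551), Aqp3 (-0.23, edgeR adjusted p = 0.0923) and Aqp11 (-0.22, edgeR adjusted p = 0.101) had lower levels that did not pass, although Aqp7 did in the fit of all 14 kidneys (edgeR adjusted p = 0.0349). In CPM the groups did not overlap for any of the 6 genes, as for 29.6% of all genes tested. In TPM those of Aqp4 overlapped. Without water replicate 3 of the 2680 schedule Aqp2 (edgeR adjusted p = 0.0615) and Aqp1 (edgeR adjusted p = 0.0504) no longer passed, and without its replicate 1 Aqp1 did not (edgeR adjusted p = 0.0537).

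The schedules also differed in other ways. Mitochondrial genes took 9.71% of counted reads in the water kidneys of the 1340 schedule and 20.6% in those of the 2680 schedule. The 5 adipocyte markers, led by Cfd, summed to 25.4 ± 18.6 CPM (SD, n = 4) and 204 ± 22.9 CPM (SD, n = 3), and all 5 rose (median log2 difference 3.13). Of 5 endothelial markers 3 rose, Pecam1, Emcn and Cdh5 (log2 differences 0.51, 0.58 and 0.50). Of 5 hepatocyte markers 3 fell, Alb, Apoa1 and Fgb (log2 differences -2.90, -3.10 and -2.40). Among tubule cells, 2 of 8 proximal tubule markers fell (median log2 difference 0.04) and 1 of 6 principal cell markers rose (median 0.12). In the thick ascending limb 2 of 6 markers fell, and of 6 intercalated cell markers 2 rose and 1 fell. Without mitochondrial genes the same count of 3 genes passed. The part of these cell types in the result was not tested. The number of gavages cannot be told apart from any batch of the libraries. The study names 2 sequencer models, and its text does not say which libraries each of them ran.

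In liver 1 of 5 genes tested was altered between the water mice, Aqp8, which rose by a log2 difference of 0.89 (SE 0.22, edgeR adjusted p = 0.0397), beside a background of 4.44% of 12541 genes. This call was lost in the fit of all 14 livers (edgeR adjusted p = 0.343) and without 6 of the 7 livers in turn. Aqp1 was at 51.3, 58.0, 43.7 and 31.8 CPM in the 1340 schedule and at 67.1, 80.7 and 73.2 CPM in the 2680 schedule, without overlap, as for 19% of all genes tested. Its log2 difference of 0.67 (SE 0.19) missed the threshold (edgeR adjusted p = 0.0637) and passed with the replicate number as a block (log2 difference 0.55, edgeR adjusted p = 0.0152), where 2 genes were called. The sinusoidal endothelial markers Stab2 and Clec4g rose too, by 0.84 and 1.03 on the log2 scale (edgeR adjusted p = 0.0254 and 0.00540), and the third of that list, Lyve1, was at 0.16 (edgeR adjusted p = 0.861). The 5 endothelial markers had log2 differences of -0.20 to 0.86 (median 0.64), with Cdh5 at the lowest edgeR adjusted p (0.0591). The part of endothelium in the Aqp1 difference was not tested.

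Genes that act with these channels were followed in 7 lists. At 1340 mg/kg/d in kidney none of their 78 genes tested passed in edgeR, while 19 had an unadjusted p under 0.05, as did 8.94% of all genes tested, and 4 passed in DESeq2, which called 159 genes in all. The smallest p values were those of Pck1, the gluconeogenic carboxykinase (log2 fold change 0.67, edgeR adjusted p = 0.0852), and Slc5a3, the inositol importer of osmotic adaptation (0.56, edgeR adjusted p = 0.0945). Slc12a1, the salt carrier of the thick ascending limb that builds the medullary gradient, was at 0.43 (edgeR adjusted p = 0.117), and Tfcp2l1, a transcription factor of collecting duct cells, at 0.38 (edgeR adjusted p = 0.234). Ednrb, an endothelin receptor of the collecting duct, was at 0.48 (edgeR adjusted p = 0.422).

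At 2680 mg/kg/d in kidney, Aqp6, an aquaporin of intercalated cells, was at 68.0 ± 0.777 CPM in water and 90.2 ± 7.59 CPM in NMN kidneys (SD, n = 3 each; log2 fold change 0.41, edgeR adjusted p = 0.0568), and DESeq2 called 1 of the 2 other aquaporins tested. Of 80 genes tested over the 7 lists, 1 passed in edgeR, higher with NMN, 12 had an unadjusted p under 0.05 and 3 passed in DESeq2. The edgeR call was 1 of 15 genes of urine concentrating transport, of which 5 had an unadjusted p under 0.05 and 2 passed in DESeq2. None of 22 genes of vasopressin receptor signalling passed in edgeR, with 2 under an unadjusted p of 0.05 and none in DESeq2. Their median log2 fold change of 0.01 stood beside 0.00 over all genes. The same held for 13 genes of Aqp2 vesicle trafficking, of which none passed in edgeR, 1 had an unadjusted p under 0.05 and none passed in DESeq2 (median log2 fold change -0.01). Of all genes tested in this comparison 0.4% passed in edgeR and 11.1% had an unadjusted p under 0.05. Creb1, the cyclic AMP response factor, was at -0.30 (edgeR adjusted p = 0.315).

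In liver none of 54 genes of these lists passed in edgeR at 1340 mg/kg/d, with 1 (Pde4b) under an unadjusted p of 0.05 and 1 in DESeq2. At 2680 mg/kg/d 6 of 53 passed, beside 7.08% of all genes tested. Pde4b, a phosphodiesterase that degrades cyclic AMP, fell by 1.999 on the log2 scale (edgeR adjusted p = 0.0133) and Creb1 rose by 1.19 (edgeR adjusted p = 0.0161), 2 of 14 genes tested of vasopressin receptor signalling. In glycerol handling 2 of 10 passed: Fbp1, the gluconeogenic bisphosphatase, fell by 0.77 (edgeR adjusted p = 0.00618) and Gpd1, the dehydrogenase that links glycerol phosphate to glycolysis, fell by 0.72 (edgeR adjusted p = 0.0290). Among osmolyte genes 2 of 7 passed: Slc6a12, the betaine carrier, fell by 0.97 (edgeR adjusted p = 0.00428) and Slc5a3 rose by 1.81 (edgeR adjusted p = 0.0206).

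Between the water kidneys of the schedules 22 of 79 genes in the lists passed, 12 higher and 10 lower in the 2680 schedule, beside 18.3% of all genes tested. The lists below were short, and nothing particular to them is read from their counts. Of 7 osmolyte genes, 4 fell and none rose: Slc5a3 by 1.01, Hspa1b, a heat shock protein, by 1.33, Sdc4, a syndecan, by 0.73 and Hspa4l, a heat shock protein, by 0.61, each on the log2 scale (edgeR adjusted p = 3.16e-05, 0.000155, 3.06e-05 and 0.0201). In vasopressin receptor signalling 6 of 22 passed, of which Gnas, the stimulatory G protein, Adcy6, an adenylyl cyclase of the collecting duct, and Pde4d, a phosphodiesterase, fell (by 0.49, 0.30 and 0.86 on the log2 scale), while Prkar2b, Akap7 and Ptger3 rose (by 1.62, 0.71 and 0.50). Tfcp2l1 fell by 0.52 on the log2 scale (edgeR adjusted p = 0.000418), the 1 of 10 transcription and osmotic factors that passed. In glycerol handling 5 of 11 passed: the lipid hydrolases Pnpla3, Lipe and Pnpla2 rose by 2.71, 1.01 and 0.48 on the log2 scale and Gpd2, a glycerol phosphate dehydrogenase, by 0.53, while Pck1, a gluconeogenic enzyme, fell by 1.00. The adipocyte markers were higher in the same kidneys, and their part in these differences was not tested. Of 15 genes of urine concentrating transport 4 passed, of which Fxyd2, a subunit of the sodium pump, Slc14a2, the urea carrier, and Scnn1b, a sodium channel subunit, rose (by 0.55, 0.47 and 0.28 on the log2 scale) and Kcnj1, a potassium channel, fell by 0.46. Nedd4, a ubiquitin ligase and 1 of 13 trafficking genes, rose by 0.31, and Aqp6, the 1 other aquaporin tested, rose by 0.27 (edgeR adjusted p = 0.0426). Between the water livers 6 of 54 list genes passed, all lower in the 2680 schedule, beside 4.44% of all genes tested. They were the tubule genes Slc12a1 and Umod, which were themselves used to measure the trace of kidney RNA, the tubule gene Fxyd2, and Pck1, Mgll, a lipase, and Sdc4 (log2 differences -1.97, -1.079 and -0.81).

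Finally, the spread among mice of the same group was compared between genes, as Pearson r of log2 CPM deviations from the group means over the 14 libraries of an organ. These describe shared variation only, since depth and composition are shared by all genes of a library. In kidney Aqp2 was most alike to Fam110a (r = 0.91), Kcne1, a potassium channel subunit (0.91), and Ptgs1, the constitutive cyclooxygenase (0.89), out of 13934 genes, while its r with Aqp3 was 0.11 and with Aqp4 -0.20. Aqp4 was most alike to Rnd2 (0.90), Ano3 (0.89) and C030015A19Rik (0.86), Aqp1 to Thtpa (0.96), 2510009E07Rik (0.94) and Gm42944 (0.94), and Aqp3 to Slc30a5 (0.93), Klhl36 (0.91) and Slc17a5 (0.91). Aqp11 followed the summed proximal tubule markers (0.84), with Ak4 (0.94), Acox3 (0.91) and Hsd3b3 (0.90) the nearest genes. Aqp7 followed the adipocyte markers (0.74) and Aqp1 ran against them (-0.75) and against the erythroid markers (-0.80), and the nearest genes to Aqp7 were Sac3d1 (0.93), Imp3 (0.93) and Col20a1 (0.92).

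In liver, out of 11602 genes, Aqp1 was most alike to Col13a1 (0.95), to Cdh5, the endothelial cadherin (0.94), and to Kdr, a VEGF receptor of endothelium (0.90), and its r with the summed endothelial markers was 0.88. Aqp9 followed the summed pericentral hepatocyte markers (0.92), with Mycl (0.93), Ddhd2 (0.92) and Klf13 (0.91) as nearest genes. Most of that sum was the single gene Cyp2e1 (7334 of 9622 CPM in the water livers of the 1340 schedule), so the r says little of the other markers. Aqp8 was most alike to Islr (0.94), Yif1a (0.92) and Itm2c (0.92), Aqp4 to Chd6 (0.95), Zfp217 (0.94) and Smcr8 (0.91), and Aqp11 to Cyb5r1 (0.92), Fign (0.90) and Clcn2 (0.89).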

How the data were processed

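Poly(A) RNA libraries of liver and kidney were grouped by the organ, schedule and treatment in their titles. Reads were aligned by the authors with STAR and counted with HTSeq-count, which used the intersection-strict mode and ignored strand; the deposited values are raw counts per gene, from which 5 summary entries per library were left out. The build named by the study could not be matched, so no coordinates are given for counted genes; those of the 2 promoter sequences are RefSeq's own. Of 54446 identifiers, 53229 matched GENCODE M21 with version, 1180 without and 37 not at all; exon lengths for TPM came from it.

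Counts were tested in R 4.3.3 with edgeR 4.0.16 (filterByExpr, TMM, robust quasi-likelihood test, Benjamini-Hochberg adjustment over all genes tested, call at adjusted p under 0.05) within each organ and schedule, over only the libraries compared. The study used DESeq2, run here as an alternative (1.42.0), with its size factors, no filter, no mitochondrial genes, a replicate block, one fit of all 14 libraries of each organ, and each library left out. Standard errors are the log2 fold change over the root of the F statistic. CPM were scaled to TMM library sizes computed within each organ, as the design had named, and not between organs. Depth limits precision to counting error for genes under about 10 counts; 3 counts are taken as the floor. The naming rule took all 9 genes, the 2 smallest p values and the calls of each list (up to 5, otherwise 3 per direction), and the 3 most alike genes; examples are given from these, and genes outside the rule were named after their values were seen. Genes and lists were chosen with earlier results of these data known. The study calls the replicates biological, and no 2 libraries of the same group agreed within sampling noise (other pairs were not compared). Same-numbered water livers and kidneys deviated together (r = 0.121 to 0.374 in 7 pairs), as did same-numbered water livers of the schedules (r = 0.237 to 0.427 in 3 pairs). Those of the schedules are different mice, and their same-numbered water kidneys had r of 0.222, 0.176 and 0.0503. The reported tests used no pairing, and the replicate number entered only as the block of an alternative fit. Any pairing by number comes from the values, not the labels. Scripts were tested on simulated data, where false calls ran above the nominal share in several comparisons with both tools. The result of 1 list gene in kidney is not reported here.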

Additional observations from a re-analysis of the deposited data

Results flagged for a closer look

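Of 22 groups of 4 mice and genes tested for a library far from the others (chance flags about 1 in 20), 2 were marked. Aqp1 was at 80.5 CPM in NMN replicate 3 of the liver at 1340 mg/kg/d, above the 57.8 to 61.3 CPM of the other 3. Aqp11 was at 28.7 CPM in water replicate 1 of the liver at 1340 mg/kg/d, below the 41.8 to 44.4 CPM of the other 3.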

How the results depend on the processing

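Of 826 values of the 9 genes under the alternatives, 36 had the opposite sign to the reported one, none of them for a called gene. DESeq2 called 159 genes for NMN in kidney at 1340 mg/kg/d (18 reported), 236 in kidney at 2680 (61), 74 in liver at 1340 (2), 1448 in liver at 2680 (883), 1002 between the water livers (557), and 10 and 99 for the interactions in kidney and liver (1 and 10). Of the 9 genes it called 2 in liver at 2680, 3 between the water livers (Aqp8, Aqp1 and Aqp2, which edgeR's filter had left out at 0 to 12 counts per liver) and 1 for the kidney interaction. Without the filter the counts were 269, 514, 44, 1785, 1236, 106 and 71 in the same order, with 2 of the 9 genes in kidney at 2680 (Aqp4 and Aqp1, adjusted p = 0.0123), 3 between water livers (Aqp2 again among them) and 1 for the kidney interaction (Aqp4). With the replicate block the counts were 81 (kidney, 1340), 92 (kidney, 2680), 15 (liver, 1340), 1158 (water livers, with 2 of the 9 genes) and 2 (kidney interaction); apart from Aqp1 in the water livers the block changed no call of the 9 genes. In one fit of all 14 libraries 35 genes were called in kidney at 2680, 6 in liver at 1340, and none of the 9 genes between the water livers. With the stricter threshold of adjusted p under 0.01 and a fold over 2 or under 0.5, 135 genes and 0 of the 9 were called in liver at 2680 mg/kg/d, by edgeR. The causes of these shifts were not tested, beyond the number of genes and libraries each fit holds.

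Leaving out 1 library moved the calls over all genes between 5 and 67 (kidney, 1340), 3 and 191 (kidney, 2680), 0 and 18 (liver, 1340), 211 and 1308 (liver, 2680), 1632 and 2880 (water kidneys), 310 and 657 (water livers), 0 and 1 (kidney interaction), 7 and 25 (liver interaction) and 11258 and 11767 (organs). Of the 9 genes it left 0 to 1 called in kidney and 0 to 2 in liver at 2680 mg/kg/d, 1 to 3 in water kidneys and 0 to 2 in water livers. Aqp8 in liver at 2680 mg/kg/d passed in edgeR without NMN replicate 1 (adjusted p = 0.00537) or replicate 2 (0.00624) and reached an adjusted p of 0.203 without replicate 3. Genes at a few counts, Avpr2 above all, were below what this depth could compare.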
